A study of Mus musculus with 6 samples.

Results

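The enzymes that turn cholesterol into bile acids, and their repressor Nr0b2, were examined in liver RNA of mice on 2 diets. The set was 9 enzyme genes (Cyp7a1, Cyp8b1, Cyp27a1, Cyp7b1, Hsd3b7, Akr1d1, Amacr, Acox2 and Baat) and Nr0b2. Members were the rows of the expression table whose probe set carries exactly 1 gene symbol and whose symbol is among these 10. They made up 10 of 18193 genes and 16 of 45037 probe sets. The rule that picks the rows uses no measured value, but the genes were named with earlier results of these arrays known. Male C57BL/6 mice, an inbred laboratory strain, entered the study at 8 weeks of age. They then received either a normal diet, whose composition is not given in the sources used here, or a diet with 60% of its energy as fat, for 12 weeks. Each diet had 6 mice, and the liver RNA of 2 mice was combined, read here as 3 pools per diet with 1 Affymetrix mouse genome array each. The array of a pool is therefore the replicate (n = 3 per diet), and the spread between arrays is not that between single mice.

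Bile acids are made in hepatocytes by 2 routes. In the classic route CYP7A1 hydroxylates the ring of cholesterol in the rate-limiting step, and CYP8B1 decides how much cholic acid is formed. In the alternative route CYP27A1 oxidises the side chain first and CYP7B1 then hydroxylates the resulting oxysterols. HSD3B7 and AKR1D1 modify the sterol ring in both routes, AMACR and ACOX2 shorten the side chain in peroxisomes, and BAAT joins the product to taurine or glycine. Bile acids activate the nuclear receptor FXR, which raises Nr0b2. Its product, SHP, binds LRH-1 and HNF4-alpha and represses Cyp7a1 and Cyp8b1. In mice Cyp7b1 is also a gene of male liver, held high by the male pattern of growth hormone.

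The high-fat diet went with much less Cyp7b1 mRNA, more Nr0b2 mRNA and slightly more Hsd3b7 mRNA. Levels are log2 values as the authors normalised them, each difference is the high-fat mean minus the normal diet mean, given ± its standard error from a limma fit over 14071 genes, and a gene was called at a Benjamini-Hochberg adjusted p below 0.05. Of the 10 genes, all tested, 2 were called higher, 1 was called lower and 7 were not called. Over all genes 7.6% were called, 5.87% as higher (826 genes) and 1.73% as lower (244 genes), which became 596 and 301 genes when the arrays were quantile normalised again. All arrays of one diet lay above all arrays of the other for 6 of the 10 genes, 3 with higher and 3 with lower levels on the high-fat diet, against 35.8% of all genes. The median difference was 0.17 over the 10 genes and 0.0033 over all genes. With this set of genes chosen when earlier results of the same arrays were known, these shares describe the set and test nothing about it.

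**Figure D1:**
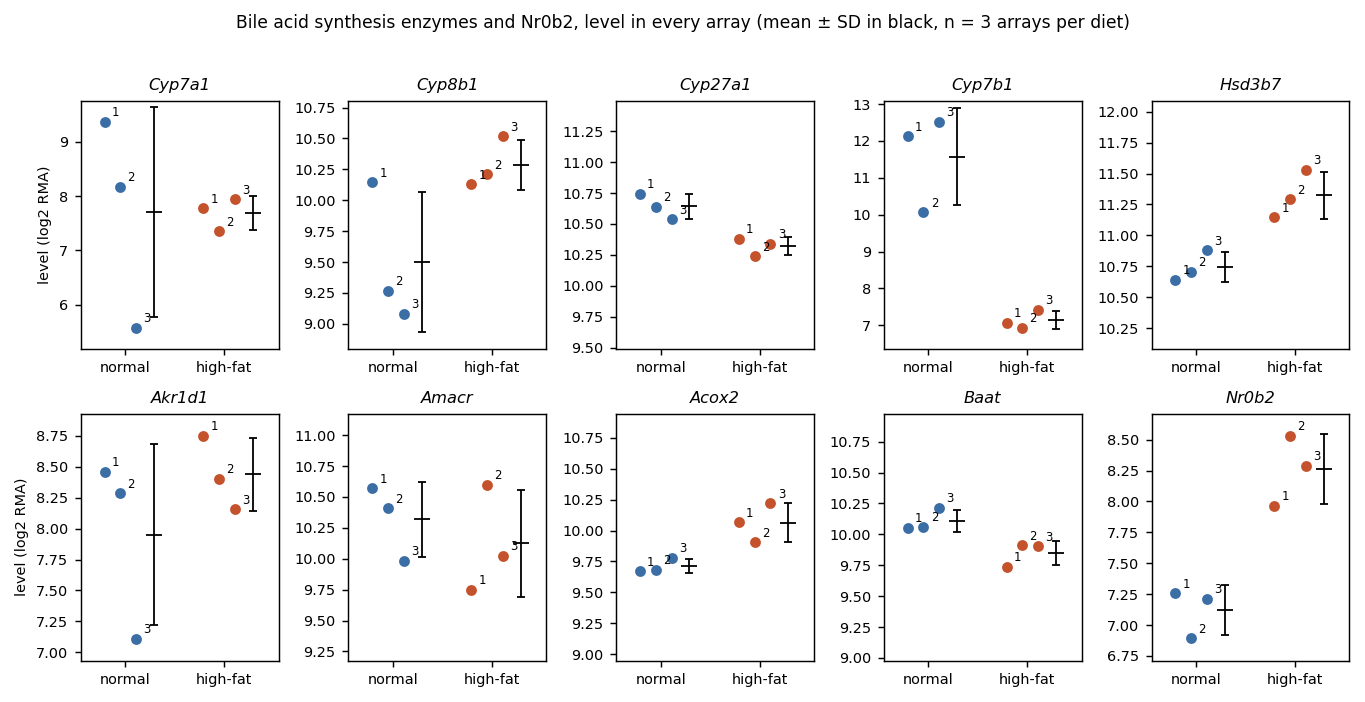
Level of each gene (log2, vertical axis) in each of the 3 normal diet arrays (blue) and 3 high-fat arrays (orange), with array numbers and the mean ± SD in black. Each panel has its own scale. Cyp7b1 and Nr0b2 split by diet with wide gaps, and Cyp7a1 spreads from 5.57 to 9.37 among the normal diet arrays alone.

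The arrays of the normal diet were less alike than those of the high-fat diet, which bears on each result here. Pearson's r over all probe sets was 0.984 to 0.992 between normal diet arrays and 0.994 to 0.995 between high-fat arrays. On the first principal component normal diet 3 lay at -46.2, the other normal diet arrays at -15.6 and -12.5 and the high-fat arrays at 24.3 to 25.4. The 3′ minus 5′ log2 difference of the Gapdh control, a measure of RNA quality, was 0.36 in normal diet 1. It was -0.19 to 0.0086 in the other arrays, and its part in the results was not tested. Of the marker lists, 4 of 7 tested macrophage genes (Adgre1, Cd5l, Vsig4 and Cd68) were called higher on the high-fat diet. Over all genes 5.87% were called higher and 1.73% lower. Clec4f, Timd4 and Marco differed by 0.071, -0.15 and -0.059 and were not called. The mean log2 level of the macrophage list was 6.77 to 7.05 in normal diet and 7.31 to 7.55 in high-fat arrays. The hepatocyte list lay at 13.51 to 13.55 (normal diet) and 13.32 to 13.34 (high-fat), with Fgb called lower among 8 genes. Lyve1 was the called gene among 6 tested endothelial genes (2.56-fold higher) and Lrat among 5 tested stellate genes (2.69-fold higher). Cela1 was the called gene among 4 tested genes of exocrine pancreas and gut (1.76-fold lower). Of 9 tested genes of pericentral hepatocytes Cyp1a2 was called (2.04-fold lower), and of 7 tested periportal genes none was. Mean log2 levels in normal diet and high-fat arrays were 6.42 to 6.75 and 6.90 to 7.01 for the endothelial list, 6.48 to 6.79 and 6.90 to 7.21 for the stellate list, and 7.03 to 7.24 and 6.45 to 6.61 for the list of pancreas and gut. Krt19, Krt7, Sox9 and Epcam of bile duct cells, Retn of fat cells and Alas2 of red blood cells passed the level filter and were not called, while Cftr, Adipoq, Lep and Hba-a1 of the same lists lay below the filter. In tissue samples fewer cells of a type and less RNA per cell cannot be told apart, and the part of cell composition in the results below was not tested.

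Cyp7a1, which encodes the rate-limiting enzyme, showed no diet difference that these arrays could resolve. Its level was 9.37, 8.17 and 5.57 in normal diet 1, 2 and 3 and 7.78, 7.35 and 7.94 in high-fat 1, 2 and 3. All high-fat values thus lay inside the range of the normal diet values, and normal diet 3 was the lowest array of all. The difference was -0.01 ± 0.84 (n = 3 arrays per diet, limma adjusted p = 0.993), with a 95% interval from -1.97 to 1.94. That interval spans 0.256-fold to 3.83-fold, so changes up to that size in either direction are not excluded by these arrays. The SD among normal diet arrays, 1.94, exceeded that of 99.9% of tested genes. A further Cyp7a1 probe set, at a lower level, gave 6.12, 6.10 and 4.24 under normal diet and 5.33, 4.71 and 5.37 under the high-fat diet. It too was lowest in normal diet 3, and its high-fat values lay below those of normal diet 1 and 2.

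Whether Cyp7a1 lay lower on the high-fat diet depended on normal diet 3. Without that array the difference was -1.08 (limma adjusted p = 0.0859) for the first probe set and -0.97 (adjusted p = 0.0340) for the second one, which passed. Without normal diet 1 the first probe set differed by 0.82 (adjusted p = 0.461). The call for the second probe set thus exists only with an array left out after the values were seen.

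Normal diet 3 also stood apart for many other genes, some of which regulate or accompany Cyp7a1. Dbp, a circadian transcription factor that activates Cyp7a1 in rodents, was singled out after its values were seen. Its level was 9.33 and 8.59 in normal diet 1 and 2, 4.29 in normal diet 3 and 9.54, 9.90 and 9.75 in the high-fat arrays. The diet difference of Dbp was 2.33 ± 1.16 and not called (adjusted p = 0.236), and it was 0.77 (adjusted p = 0.0692) without normal diet 3. Of 24 tested regulators of bile acid synthesis genes 15 had their lowest normal diet value in normal diet 3, against 37.8% of all tested genes. So did 7 of 9 genes of pericentral hepatocytes, 15 of 20 tested partners of the pathway and 9 of 14 bile acid transporter genes. The same held for 9 of 15 genes raised by FXR and 13 of 15 female-biased genes. It held for 3 of 7 periportal genes (42.9%), near the share of all genes, and for 4 of 19 male-biased genes (21.1%), below it. Of those 3 periportal genes Ass1 lay near the level filter (3.66 to 3.99). The labels give a cycle of light and dark in the animal room but no time of day for the sampling, and the part of time of day, or of anything else particular to that pool, was not tested.

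**Figure D2:**
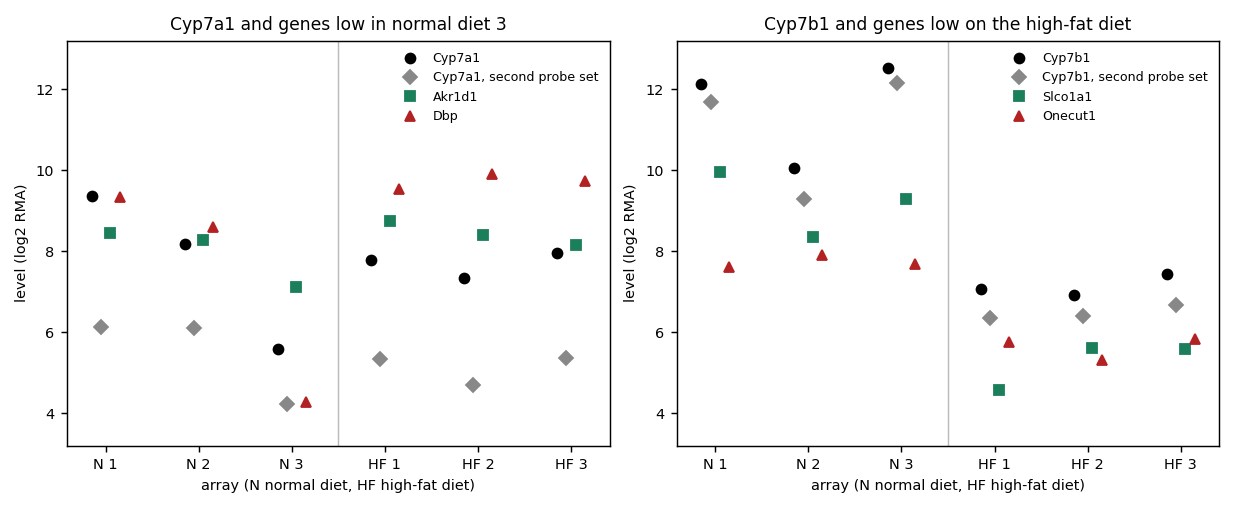
Level (log2) by array, with normal diet (N) on the left and high-fat diet (HF) on the right of each panel. Left: both Cyp7a1 probe sets, Akr1d1 and Dbp are at their lowest in normal diet 3, where Dbp is 4.29. Right: both Cyp7b1 probe sets, Slco1a1 and Onecut1 are lower in every high-fat array than in any normal diet array.

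The tested genes closest to Cyp7a1 over the 6 arrays, among 1122 with an SD of at least 0.5, were Chac1 (Pearson's r = 0.962), Fam47e (0.952), Syt1 (0.951), Slc1a2 (0.947) and Gne (0.945). Each of them was lowest in normal diet 3, and none was called for diet. Slc1a2, a glutamate transporter gene of pericentral hepatocytes, lay at 8.65, 7.94 and 5.33 in normal diet 1, 2 and 3 and at 6.69 to 7.12 in the high-fat arrays. These correlations describe 6 arrays that share 2 diets and carry no test.

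Cyp8b1, the branch point to cholic acid, was 10.15, 9.27 and 9.08 in normal diet 1, 2 and 3 and 10.13, 10.21 and 10.52 in high-fat 1, 2 and 3. Normal diet 1 lay among the high-fat arrays, and the other normal diet arrays lay below them. The difference of 0.79 ± 0.27 was not called (1.72-fold, limma adjusted p = 0.116), and its 95% interval ran from 0.16 to 1.42. Of its alternative fits only 1 called it, that without normal diet 1 (1.11, limma adjusted p = 0.0153).

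Among promoters, those of Nr0b2 and Cyp8b1 are shown because the repressor's gene rose and Cyp8b1 is a gene it is known to repress through LRH-1 and HNF4-alpha. RefSeq promoters on GRCm38.p6 were at hand for 6 of the 10 genes. Capitals mark matches, on either strand, to the LRH-1 half-site CAAGGNCA, the LRH-1 core TCAAGG, the HNF4-alpha core CAAAGTCCA and the TATA box TATAAA, as well as the general nuclear receptor half-site AGGTCA. The motifs were picked with the promoter sequences in view, so the shares given below do not show that a match is unusual. The 250 bases before each start read, 5′ to 3′ along the gene:
Nr0b2 (chr4:133553126-133553375, plus strand): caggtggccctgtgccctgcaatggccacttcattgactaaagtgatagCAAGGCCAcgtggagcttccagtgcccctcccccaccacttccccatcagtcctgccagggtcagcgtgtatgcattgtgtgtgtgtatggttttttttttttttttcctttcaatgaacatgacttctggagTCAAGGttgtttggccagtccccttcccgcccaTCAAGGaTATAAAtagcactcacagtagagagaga
Cyp8b1 (chr9:121916306-121916555, minus strand): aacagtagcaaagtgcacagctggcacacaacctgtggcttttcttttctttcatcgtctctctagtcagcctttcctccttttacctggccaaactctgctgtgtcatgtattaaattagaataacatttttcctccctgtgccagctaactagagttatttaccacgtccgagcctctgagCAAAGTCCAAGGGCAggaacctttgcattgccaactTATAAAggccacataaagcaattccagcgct
In Cyp8b1 the HNF4-alpha core at -67 to -59 ran into an LRH-1 half-site at -60 to -53, so that both share 2 bases. The HNF4-alpha core occurred in 0.387% and the LRH-1 half-site in 5.54% of 32536 mouse promoter windows of that length. Nr0b2 held an LRH-1 half-site at -201 to -194 and the TCAAGG core at -68 and at -35, a core found in 12.4% of the windows. TATAAA, present in 12.3% of the windows, lay at -31 in Cyp8b1 and at -28 in Nr0b2. AGGTCA, present in 14% of windows, was in neither promoter. Of the promoters not shown, that of Akr1d1 held TCAAGG at 1 site and AGGTCA at 2, and those of Hsd3b7, Cyp27a1 and Acox2 matched none of the 5 motifs. A match describes letters in this window and is no evidence of binding.

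Cyp27a1, the first enzyme of the alternative route and of side chain oxidation, was 10.75, 10.64 and 10.54 in normal diet 1, 2 and 3 and 10.38, 10.24 and 10.34 in high-fat 1, 2 and 3. Every high-fat array lay below every normal diet array, with a gap of 0.159 between the nearest ones. The difference of -0.32 ± 0.10 (1.25-fold lower, 95% interval -0.56 to -0.084) was not called (limma adjusted p = 0.0972). It was called only after cyclic loess scaling of the arrays (-0.45, adjusted p = 0.0383). The remaining Cyp27a1 probe set lay between 2.20 and 2.52 and was below the level filter, which lay between 3.48 and 3.59 in the 6 arrays.

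Cyp7b1, whose enzyme hydroxylates oxysterols, had the largest decrease among the 244 genes called lower. Its level was 12.13, 10.06 and 12.52 in normal diet 1, 2 and 3 and 7.07, 6.93 and 7.43 in high-fat 1, 2 and 3. The groups were separated by 2.64 on the log2 scale, while normal diet 2 lay well below the other normal diet arrays. The difference was -4.43 ± 0.58 (21.5-fold lower, 95% interval -5.77 to -3.08, n = 3 arrays per diet, limma adjusted p = 0.00860). The further expressed probe set gave 11.69, 9.30 and 12.16 against 6.35, 6.41 and 6.67, a difference of -4.57 ± 0.65 (adjusted p = 0.0128 over all probe sets). That probe set has the lowest value of the normal diet in the same array. The last Cyp7b1 probe set lay between 2.37 and 2.73, below the level filter. Without normal diet 2 the difference was -5.18 (adjusted p = 3.62e-04), and Cyp7b1 kept its call whichever array was left out (adjusted p up to 0.0485). The further probe set was called with all arrays but lost its call without high-fat 1, 2 or 3 (adjusted p = 0.0619, 0.0635 and 0.0663).

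Some other genes of male liver were called lower too. Of 19 tested male-biased genes 8 were called, all of them lower, and 11 were not called, against 1.73% of all genes called lower, with a median difference of -1.31. Slco1a1 encodes an importer of organic anions and lay at 9.95, 8.34 and 9.30 in normal diet 1, 2 and 3 and at 4.58, 5.6 and 5.59 in high-fat 1, 2 and 3. It was lower by a factor of 15.4 on the high-fat diet (-3.94 ± 0.43, limma adjusted p = 0.00508), and its normal diet level too was lowest in array 2. Egfr, the epidermal growth factor receptor gene, was 8.89-fold lower, Susd4 2.99-fold lower and Cyp4a12a, a male-specific fatty acid hydroxylase gene, 3.27-fold lower. Of 15 tested female-biased genes 3 were called, all of them higher, against 5.87% of all genes called higher, namely Cyp17a1 (5.42-fold), Ntrk2 (2.40-fold) and Rtn4 (3.45-fold). With the probe sets of a gene averaged, the log2 differences shrank from -3.15 to -1.56 for Egfr, from 1.26 to 0.40 for Ntrk2 and from 1.79 to 0.64 for Rtn4, all still called. Both lists were written with earlier results of these arrays known. Male-biased calls became 4 without normal diet 1 and 3, 3 and 2 without high-fat 1, 2 and 3. Female-biased calls became 6 without normal diet 2 and 2 without any one high-fat array. Rtn4 lost its call in each fit that lacked a high-fat array, and Susd4 in those that lacked high-fat 2 or 3. Cyp4a12a lost its call with a replicate block (adjusted p = 0.0606), without normal diet 1 and without high-fat 1, 2 or 3.

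Within the normal diet, array 2 was the one with the lowest Cyp7b1 and also had the lowest value for 14 of 19 male-biased genes and the highest for 12 of 15 female-biased genes. Normal diet 3 was the lowest for 13 of the 15. Over all tested genes array 2 held 29.7% of the lowest and 29.6% of the highest values. The mean log2 level of the male-biased list was 10.01, 9.14 and 9.79 in normal diet 1, 2 and 3 and 7.94, 8.53 and 8.32 in high-fat 1, 2 and 3. That of the female-biased list was 6.07, 7.14 and 5.10 under normal diet and 7.19, 6.85 and 7.37 under the high-fat diet. The labels give male mice for all pools, and the part of growth hormone or of any other signal was not tested.

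The tested genes closest to Cyp7b1 over the 6 arrays were Socs3, a feedback inhibitor of cytokine signalling (r = 0.986), Ang, which encodes angiogenin (0.984), Iigp1, an interferon-induced GTPase gene (0.983), Gm16551 (0.980) and Ubqlnl (0.979). All 5 were called lower on the high-fat diet, with log2 differences of -2.58, -1.69, -1.44, -2.45 and -0.90 in that order. Each was lowest in array 2 among the normal diet arrays. They were picked for a level pattern like that of Cyp7b1, so both traits largely follow from the choice and carry no test.

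Hsd3b7, which encodes the ring dehydrogenase both routes need, was 10.64, 10.71 and 10.88 in normal diet 1, 2 and 3 and 11.15, 11.29 and 11.53 in high-fat 1, 2 and 3. The groups did not overlap, and the gap between them was 0.27. The rise of 0.58 ± 0.13 (1.5-fold, 95% interval 0.28 to 0.89) was called at a limma adjusted p of 0.0395. The call did not hold in every fit. It ended with quantile normalised arrays (0.52, limma adjusted p = 0.0657) and with cyclic loess scaling (0.45, limma adjusted p = 0.101). It also ended without normal diet 1 or 2 or any high-fat array (limma adjusted p from 0.0710 to 0.129). With each array left out in turn the difference itself stayed between 0.48 and 0.67.

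Akr1d1, the reductase gene of the next ring step, was 8.46, 8.29 and 7.11 in normal diet 1, 2 and 3 and 8.75, 8.41 and 8.16 in high-fat 1, 2 and 3. The groups overlapped, and normal diet 3 was again the lowest array. The difference was 0.49 ± 0.35 and not called (limma adjusted p = 0.391), with a 95% interval from -0.32 to 1.30. The other Akr1d1 probe set lay at 8.26, 8.32 and 6.76 under normal diet and 8.14, 8.15 and 8.51 under the high-fat diet. Without normal diet 3 the differences were 0.066 and -0.021, so the higher mean of the high-fat diet rested on that array.

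Amacr, the racemase gene of the peroxisomal steps, was 10.57, 10.41 and 9.98 in normal diet 1, 2 and 3 and 9.75, 10.60 and 10.02 in high-fat 1, 2 and 3. The groups overlapped fully, and high-fat 2 was the highest array of all. The difference of -0.20 ± 0.24 was not called (limma adjusted p = 0.622, 95% interval -0.76 to 0.36).

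Acox2, which encodes the branched-chain acyl-CoA oxidase of the peroxisome, was 9.67, 9.68 and 9.78 in normal diet 1, 2 and 3 and 10.07, 9.91 and 10.22 in high-fat 1, 2 and 3. All high-fat arrays lay above all normal diet arrays. The difference of 0.35 ± 0.11 (1.28-fold, 95% interval 0.091 to 0.62) was not called (limma adjusted p = 0.0980).

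Baat, the conjugating enzyme gene, was 10.05, 10.06 and 10.22 in normal diet 1, 2 and 3 and 9.74, 9.91 and 9.90 in high-fat 1, 2 and 3. All high-fat arrays lay below all normal diet arrays, with a gap of 0.139. The difference of -0.26 ± 0.10 (1.2-fold lower, 95% interval -0.50 to -0.016) was not called (limma adjusted p = 0.161). The other Baat probe set lay between 8.22 and 8.57 under normal diet and between 7.92 and 8.16 under the high-fat diet, a difference of -0.31 ± 0.13 (adjusted p = 0.196 over all probe sets).

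Nr0b2, the repressor, was 7.26, 6.89 and 7.21 in normal diet 1, 2 and 3 and 7.97, 8.53 and 8.29 in high-fat 1, 2 and 3. The lowest high-fat array lay 0.71 above the highest normal diet array. The rise of 1.14 ± 0.17 (2.21-fold, 95% interval 0.74 to 1.54, n = 3 arrays per diet) was called at a limma adjusted p of 0.0119. Leaving out high-fat 2 (1.01, adjusted p = 0.0518) or high-fat 3 (1.13, adjusted p = 0.0645) ended the call, and leaving out any one of the other arrays did not. The closest genes over the 6 arrays were Clec4a2, a lectin receptor gene of myeloid cells (r = 0.989), Tmsb10, which encodes an actin-binding peptide (0.988), Serinc2 (0.982), Gltp, a glycolipid transfer protein gene (0.982), and Ralgps2 (0.980), all called higher. They were picked for a level pattern like that of Nr0b2, so their rise largely follows from the choice and carries no test.

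**Figure D3:**
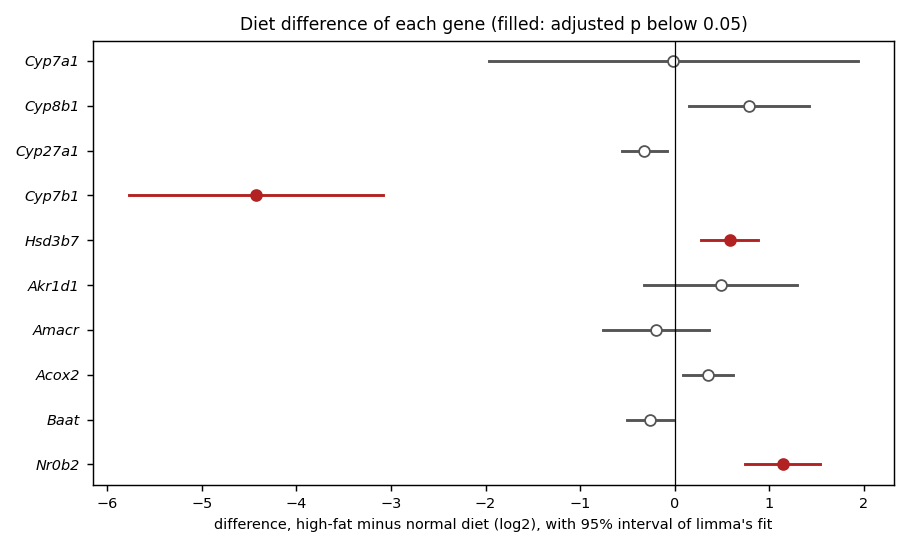
Difference of each gene (high-fat minus normal diet, log2, horizontal axis) with the 95% interval of limma's fit, filled where the gene was called. Cyp7b1 lies at -4.43, Hsd3b7 and Nr0b2 lie above 0, and the interval of Cyp7a1 runs from -1.97 to 1.94.

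Of the 14 probe sets of the 10 genes above the level filter 4 were called in a fit of all probe sets, both of Cyp7b1 and those of Hsd3b7 and Nr0b2, against 5.33% of all 27399 tested probe sets. No gene had expressed probe sets that moved in opposite directions with all arrays in the fit.

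The spread among arrays sorted the genes in another way than the diet did. In the normal diet arrays the SD was 1.94 for Cyp7a1, 1.32 for Cyp7b1, 0.73 for Akr1d1 and 0.57 for Cyp8b1, each above that of at least 95% of tested genes. It was 0.059 for Acox2, 0.091 for Baat, 0.10 for Cyp27a1 and 0.12 for Hsd3b7, below the median gene (0.166). In the high-fat arrays the SD of Cyp7a1 was 0.31 and that of Cyp7b1 0.26, with 95.3% and 91.0% of genes below them, and the largest was that of Amacr (0.43). The widest departures came from different arrays, normal diet 3 for Cyp7a1 and Akr1d1 and normal diet 2 for Cyp7b1. An SD from 3 arrays is itself imprecise, and no test was made of these spreads.

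**Figure D4:**
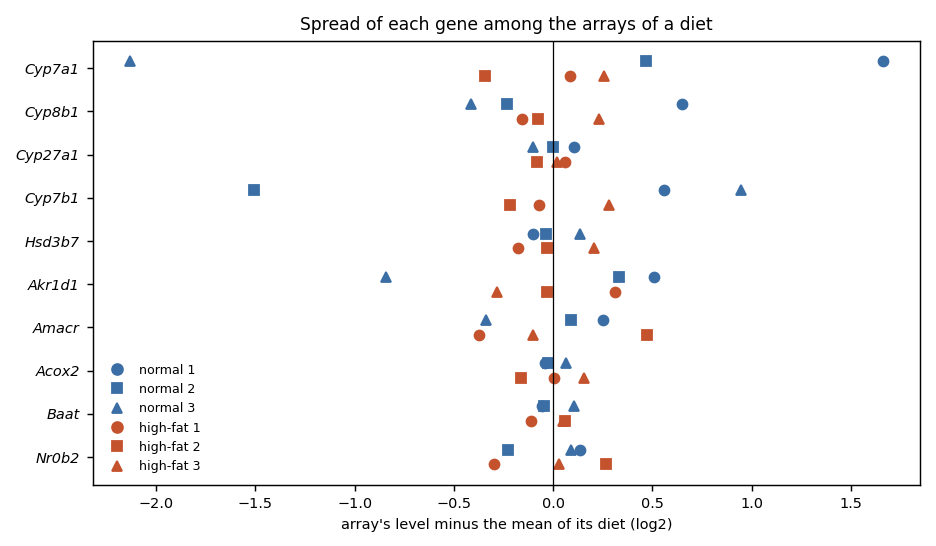
Level of each array minus the mean of its diet (log2, horizontal axis) for each gene, in blue for normal diet and orange for high-fat diet, with a marker shape per array number. Normal diet 3 lies at -2.13 for Cyp7a1 and normal diet 2 at -1.51 for Cyp7b1, while Acox2, Baat and Cyp27a1 stay within 0.16 of their means.

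Of 24 tested regulators of the pathway 2 were called, both lower. Over all genes 7.6% were called in either direction and 1.73% as lower, and the list was not tested against them. Onecut1, which encodes the liver factor HNF6, was 7.61, 7.92 and 7.68 in normal diet 1, 2 and 3 and 5.75, 5.31 and 5.84 in high-fat 1, 2 and 3. It was 4.30-fold lower (-2.10 ± 0.16, limma adjusted p = 0.00250) and kept its call under the other level filters, variance models, array weights, scalings and probe set rules, with the replicate number as a block and without any one array. Hnf4a, an activator of Cyp7a1 and Cyp8b1, was 11.88, 11.88 and 11.89 against 11.01, 11.31 and 11.25, which is 1.62-fold lower (-0.69 ± 0.11, adjusted p = 0.0138). Averaging its probe sets ended the call of Hnf4a (limma adjusted p = 0.0635), as did the use of only those probe sets whose names carry no suffix for shared or similar transcripts (0.215) and the removal of high-fat 1, 2 or 3 (0.0555, 0.0508 and 0.0619). Nr1h4, the FXR gene, differed by 0.083 ± 0.12, Nr5a2, the LRH-1 gene, by 0.016 ± 0.14, Fgfr4, the hepatic receptor for intestinal FGF15, by -0.0054 ± 0.11, and its co-receptor gene Klb by 0.36 ± 0.30, none of them called. The sign of the Nr1h4 and Nr5a2 differences turned with quantile normalised or cyclic loess scaled arrays. That of Nr5a2 also turned with the mean of its probe sets (-0.21) and without normal diet 2, high-fat 2 or high-fat 3. That of Fgfr4 turned with median centring and without normal diet 1, high-fat 1 or high-fat 2. Klb differed by 0.011 without normal diet 3. The median regulator differed by 0.12.

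FXR is known to raise several further liver genes. Of 15 tested genes on that list 1 was called higher, 3 lower and 11 not, against 7.6% called over all genes, with a median difference of -0.077. That median is the value of Fgf15, the gene of intestinal FGF15, which lay at only 3.94 to 4.17. Slc51a lay at 3.54 to 3.77, so both were near the level filter (3.48 to 3.59). At most 1 of the 15 genes was called in any fit that lacked a high-fat array. Apoc2, an apolipoprotein gene, was 2.17-fold higher, while Fetub was 1.89-fold lower, Osgin1 1.64-fold lower and Irs2 1.91-fold lower. Apoc2, Osgin1 and Irs2 lost their calls in each fit that lacked a high-fat array, Osgin1 also without normal diet 2, and Fetub without high-fat 1 or 2. Abcb11, the bile salt export pump gene, differed by -0.14 ± 0.13 and Slc51b, a basolateral bile acid transporter gene, by -0.29 ± 0.14, neither called. These were named after their values were seen, as the best known FXR targets of the list.

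Among 20 tested partners of the pathway 2 were called, both lower, against 7.6% of all genes called in either direction and 1.73% called lower. Cyp2c70, the mouse enzyme that makes muricholic acids, was 12.50, 12.48 and 13.37 in normal diet 1, 2 and 3 and 10.91, 10.92 and 11.05 in high-fat 1, 2 and 3. It was 3.54-fold lower (-1.82 ± 0.23, limma adjusted p = 0.00833). Sult2a8, a bile acid sulfotransferase gene of mouse liver, was 12.27, 11.91 and 11.85 against 9.30, 10.30 and 9.74. It was 4.70-fold lower (-2.23 ± 0.25, adjusted p = 0.00520). Both kept their calls under the same alternatives as Onecut1. Of 14 tested bile acid transporter genes 1 was called higher, Abcc4 (3.86-fold), and 1 lower, Slco1a1, again against 7.6% of all genes. Abcc4, an efflux pump gene, lost its call in each fit that lacked a high-fat array (limma adjusted p 0.0752 to 0.0981).

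**Figure D5:**
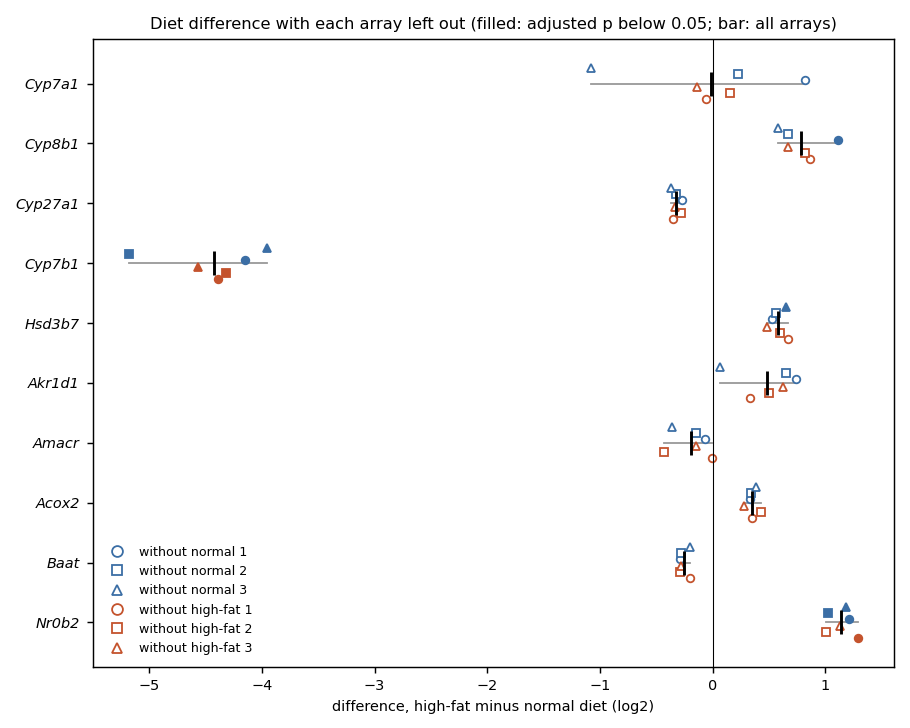
Difference of each gene (high-fat minus normal diet, log2, horizontal axis) with each array left out in turn, filled where the gene was called, and with all arrays as a black bar. Cyp7b1 stays between -5.18 and -3.95 and is called throughout, whereas Cyp7a1 moves from -1.08 without normal diet 3 to 0.82 without normal diet 1.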

How the data were processed

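Liver RNA pools of mice on 2 diets were measured on 6 arrays. The authors deposited log2 signals, 1 per probe set; per the submitters' processing notes these come from RMA as run by Affymetrix Expression Console 1.0. No scanner data were used here. RMA shrinks differences of dim genes, whose folds are thus understated, and precision is limited by having 6 arrays. Of 45101 probe sets 64 controls were left out, 34945 had 1 gene symbol, 932 had several and 9160 had none in the platform annotation. Gene IDs of 34741 were found in a gene table of GRCm38.p6, used for names. The probe set of highest mean stood for its gene, and genes had to exceed the 40th percentile of the array in at least 3 of 6 arrays.

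limma 3.58.1 in R 4.3.3 compared high-fat with normal diet with lmFit and eBayes. Its two-sided p-values were adjusted by Benjamini-Hochberg across the 14071 genes tested. Python 3.11.15, pandas 2.3.3 and matplotlib 3.10.9 summarised tables. The fit was tested on simulated data. Alternatives were other level filters, variance models, array weights, scalings and probe set rules, the replicate number as a block, and fits that lack 1 array. Named genes were all members, up to 4 called genes per list with the smallest p, 5 fixed regulators, and the 5 genes closest to Cyp7a1, Cyp7b1 and Nr0b2. Dbp, Abcb11, Slc51b and the cell type markers named are outside this rule and were picked after their values were seen. Members, lists and rules were chosen with earlier results of these data known. Some list counts and probe set values without an array were added after the data were seen.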

Additional observations from a re-analysis of the deposited data

How the results depend on the processing

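Of 168 recomputed differences of the 10 genes, 153 kept direction and side of the threshold, 9 lost a call, 2 gained one and 4 changed sign. The sign changes were those of Cyp7a1, never called, with median centring (0.033), without normal diet 1 (0.82), without normal diet 2 (0.22) and without high-fat 2 (0.16). The Akr1d1 probe set that does not represent the gene also changed sign without normal diet 3 (-0.021), and with each array left out it ranged from -0.021 to 0.76. Cyp7a1 ranged from -1.08 to 0.82 in those fits. Lost calls were 7 for Hsd3b7 and 2 for Nr0b2, and the cause was not tested. Cyp7b1 was called in all 17 alternatives, from -5.18 to -3.05, the smallest being the mean of its probe sets, which includes a probe set below the level filter.

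With each array left out in turn, the called members numbered 1 to 3 (3 with all arrays), the called probe sets of members 0 to 5 (4 with all arrays), the other pathway genes 8 to 29 (20 with all arrays) and all genes 169 to 1245 (1070 with all arrays). The 0 was reached without high-fat 2 or 3, where limma gave 6 of the 14 probe sets an unadjusted p below 0.05 and, fitted by gene, still called Cyp7b1. Over all genes, 169 to 272 were called without a high-fat array and 949 to 1245 without a normal diet array, and the cause was not tested. With the replicate number as a block, 3 members, 3 probe sets of members, 15 other pathway genes and 768 genes were called, all with counts within 1.5 times those without the block. The replicate numbers share only a number: deviations from the diet means of same-numbered arrays correlated at -0.012, 0.036 and 0.0999, and not every array correlated best with its own number. Probe sets without a suffix left 8 of the 10 genes, without Hsd3b7 and Acox2. Groups of 3 arrays are too small for a test of single outlying arrays.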
